A study of Mus musculus with 167 samples.

Results

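The genes described here encode the proteins from which the liver builds plasma lipoproteins: Apoa1, Apoa2, Apoa4, Apoa5, Apob, Apoc3, Apoe and Apom, which are apolipoproteins, Mttp, the transfer protein that loads lipid onto Apob, and Lcat, the plasma enzyme that esterifies cholesterol on high-density lipoprotein (HDL). They were taken by name, 10 of the 39179 genes of the deposited table, and all 10 passed the count filter that left 16235 genes over all libraries. Liver mRNA was sequenced from heterozygous knock-in mice of strain C57BL/6 whose Htt gene, mutated in Huntington's disease, carries a CAG repeat named by its length (Q175, Q140, Q111, Q92, Q80 or Q20), and from wild-type (WT) mice. The ages were 2, 6 and 10 months, giving 56, 56 and 55 libraries in 21 groups of 8, with 4 females and 4 males, except Q80 at 2 months (3 females and 5 males) and Q80 at 10 months (4 females and 3 males). No group was homozygous. Each knock-in line was housed with its own line, and WT mice with Q20 mice. Housing and allele therefore cannot be told apart between knock-in lines, nor between WT and the lines other than Q20. The labels do not say whether replicate numbers mark littermates.

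Apob is the scaffold of very-low-density lipoprotein (VLDL), which the liver secretes with triglyceride, and Mttp is needed for its assembly in the endoplasmic reticulum. Apoa1 and Apoa2 are the main structural proteins of HDL, while Apoc3 and Apoa5 slow and speed the removal of triglyceride from plasma by lipoprotein lipase. Apoe binds the receptors that clear lipoprotein remnants in the liver, Apoa4 is made by intestine and, in mice, by liver, and Apom carries sphingosine 1-phosphate on HDL.

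Library totals lay between 32025244 and 57151736 counts, and their medians at 2, 6 and 10 months were 34696186, 46777190.5 and 38228631. Levels are given as CPM, the count scaled to the normalized library total, with the standard deviation (SD) over libraries. Fold changes are log2 values with their standard error (SE), and an adjusted p is the Benjamini-Hochberg value of edgeR's quasi-likelihood test, taken over every gene tested, with a threshold of 0.05. A summed CPM of 10 hepatocyte markers between 83567 and 173113 of the total count in every library fitted the labelled tissue. Of 9 enterocyte markers, Sis was at 0 in every library and Lct, Alpi and Rbp2 had a median of 0. The others were detected, with medians of 139.4 CPM for Dpp4, 119.5 for Anpep, 30.1 for Fabp2, 0.564 for Treh and 0.339 for Vil1. Htt, counted over both alleles, fell with repeat length, by 0.27, 0.39 and 0.42 (log2 per 100 repeats) at 2, 6 and 10 months. The Q80 library of 2 months labelled male M5 appeared to go against its sex label, though values of sex-linked genes are not given here. It had the code Q80B0021 in its library name, as the females of that group did, and not Q80B0017 as the other males. Without it, the count of the 10 genes that passed was the same along the 2-month slope, between lines, sexes and ages, and for the change with age of the sex and knock-in differences, and the r of no pair of genes moved by more than 0.055. At 6 months all 48 knock-in libraries had another format of library name than the 8 WT libraries and than the libraries of 2 and 10 months, so that a batch with this format cannot be told apart from age in the knock-in lines, nor from genotype between Q20 and WT at 6 months.

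Per length of transcript, Apoe was the most abundant of these mRNAs. It had 10893 ± 1973 FPKM (fragments scaled to transcript length and library total; SD over all libraries) and ranked 6 among all genes. Apoa2 followed with 8808 ± 1182 FPKM, Apoa1 with 4956 ± 984.8 FPKM and Apoc3 with 2106 ± 382.9 FPKM. Apob, whose exons span 13934 bases in GENCODE M21, had 847.1 ± 79.2 FPKM. The FPKM of the rest were lower, with means of 358.1 for Apoa5, 244.2 for Lcat, 204.4 for Apom, 72.5 for Mttp and 43.9 for Apoa4. The 10 genes together took 2.12 to 3.39% of all counts of a library, with a median of 2.68%.

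Between single libraries Apoa4 varied most, with a highest CPM 4.12 times the lowest, and Apom least, with 1.88 times. Within groups of 1 genotype, age and sex, the SD of log2 CPM was 0.316 for Apoa4, 0.263 for Apoa1 and 0.243 for Apoa5. The SD of the other 7 lay between 0.116 (Lcat) and 0.148 (Apoc3 and Mttp), below the median of 0.173 over genes of mean log2 CPM of at least 1. When the 21 groups were put in the order of their means, no 2 neighbours of any gene differed by more than the larger of their SDs. These SDs cover both sexes, and neighbours among 21 ordered means lie close in any case. The order therefore does not show that the groups are alike. The highest group mean was 1.2 times the lowest for Mttp and 1.51 times for Apoe, with 13391 ± 1052 CPM in Q92 at 6 months and 8887 ± 611.2 CPM in Q175 at 10 months.

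The first comparison asked whether these genes follow the length of the repeat across the knock-in lines. None of the 10 passed the test at any age. At 2 months 0 of 10 passed (0.272% of all genes did), at 6 months 0 of 10 (6.27%), and at 10 months 0 of 10 (0.595%). At an unadjusted p under 0.05 edgeR gave 0, 1 and 3 of the 10 at 2, 6 and 10 months, and DESeq2 called 0 at each age after adjustment. The share of all genes at this unadjusted cutoff is not given here, for these or later counts, so they show no enrichment. The median slope of the 10 genes was 0.03, -0.00 and −0.07 per 100 repeats, against -0.00, 0.00 and −0.01 over all genes.

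At 10 months all 10 slopes were negative, and those of Apoc3, Apob and Mttp had an unadjusted p under 0.05. The share of all genes with a negative slope is not given here. Apoc3 had a slope of −0.14 ± 0.05 (SE; 95% interval −0.25 to −0.04; adjusted p = 0.305). The slope of Apob was −0.13 ± 0.05 (−0.22 to −0.03) and that of Mttp −0.13 ± 0.05 (−0.23 to −0.03). Apoc3 at 10 months had 948.3 ± 135.1 CPM in Q175, the lowest mean of its 21 groups. Without the Q175 libraries its slope was −0.00 ± 0.07, and without the Q20 libraries it was −0.33 ± 0.08, which passed (adjusted p = 0.0139). With only Q175 F3, F4 and M4 left out, which held muscle or blood RNA, it was −0.115 ± 0.059 (adjusted p = 0.995). The 95% intervals of the other slopes at 10 months reached no lower than −0.34 (Apoa4) and no higher than 0.16 (Apoa4). The slope differed with sex for 0 of 10 at 2 months (0.0% of all genes), 6 months (0.226%) and 10 months (0.173%), and with age, 10 against 2 months, for 0 of 10 (0.909%). For age 5 of the 10 had an unadjusted p under 0.05 in edgeR and 4 in DESeq2, with Mttp at −0.20 ± 0.07 (adjusted p = 0.117).

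Of the other pathway genes 7 of 76 passed along the same slope at 6 months (9.21%, against 6.27% of all genes) and 1 of 77 at 10 months (1.3%, against 0.595%). At 6 months 1 of 16 genes of VLDL assembly and secretion rose (Ces1d, a lipid hydrolase of the endoplasmic reticulum, 0.42 ± 0.10). Of 14 receptors and transporters 3 fell: Scarb1, the HDL receptor (−0.19 ± 0.04), Abcg1, which exports cholesterol to HDL (−0.47 ± 0.11), and Lrp6, a receptor of the LDL receptor family (−0.16 ± 0.05). Of 23 transcription factors of lipid metabolism, Mlxipl (0.25 ± 0.07) and Nr1h4, the bile acid receptor (0.20 ± 0.06), rose, and Ppara, the regulator of fatty acid oxidation, fell (−0.40 ± 0.09). None of the 11 other apolipoproteins tested passed, nor any of 12 plasma lipases and their partners. With F1, F3 and F4 left out, the Q20 females with the highest summed Kupffer cell markers of that group, none of these 7 genes passed, with slopes of −0.45 ± 0.11 for Ppara (adjusted p = 0.061), −0.17 ± 0.05 for Scarb1 (adjusted p = 0.101), −0.20 ± 0.05 for Lrp6 (adjusted p = 0.103) and −0.30 ± 0.13 for Abcg1 (adjusted p = 0.299). Ces1d had 0.33 ± 0.11, Mlxipl 0.20 ± 0.07 and Nr1h4 0.18 ± 0.07. Along the same slope 12 of 14 Kupffer cell and macrophage markers fell, and their part was not tested. At 10 months the gene that passed was Lpl, lipoprotein lipase (0.88 ± 0.19). Without the Q175 libraries F3, F4 and M4, which held muscle or blood RNA (Acta1 297.37 and 8.69 CPM in F3 and F4, Hba-a1 3393 CPM in M4), Lpl had 0.72 ± 0.20 and did not pass (adjusted p = 0.388). The summed adipocyte markers, of which none passed along this slope, were 0.711 to 61.2 CPM in Q175, against 0.5 to 2.52 CPM in Q20. Their medians were 1.1 and 0.946 CPM. In the other lines the highest library had 21.3 CPM in Q111, 20.9 in Q92, 2.47 in Q140 and 1.75 in Q80.

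Pairs of lines gave calls for these genes at 6 months alone. Apoa2 rose in Q175, where the 8 libraries had 4066 CPM at the lowest, 4876 at the median and 6530 at the highest, against 3795, 4147 and 4734 CPM in the 8 Q20 libraries. The groups overlapped, and the highest Q175 library was the male M3. The log2 fold change was 0.25 ± 0.08 (SE, adjusted p = 0.0314), and Apoa2 was the 1 gene of 10 that passed, where 10.9% of all genes did. In Q175 against Q20, 0 of 10 passed at 2 months (0.31% of all genes) and at 10 months (1.26%). At an unadjusted p under 0.05 edgeR gave 2 and 3 of the 10 at those ages, and DESeq2 called 0. At 10 months all 10 folds were negative, between −0.07 (Apoe) and −0.23 (Apoc3), with Apob at −0.21 ± 0.08 (adjusted p = 0.199). The share of all genes with a negative fold is not given here. Of the Q175 libraries of that age, F3, F4 and M4 held muscle or blood RNA.

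Apoe rose in Q92 and in Q140 at 6 months. The lowest, median and highest of 8 libraries were 12058, 13343 and 15403 CPM in Q92 and 12247, 13064 and 15455 CPM in Q140, against 9493, 11115 and 12024 CPM in Q20. No library of either line overlapped with Q20, but the share of all genes with no overlap between these groups is not given here. The fold was 0.28 ± 0.08 in Q92 (adjusted p = 0.0102; 18% of all genes passed) and 0.28 ± 0.08 in Q140 (adjusted p = 0.0242; 5.98% of all genes). In Q80, 9.3% of all genes passed, and of the 10 genes Apoa2 did (0.26 ± 0.08, adjusted p = 0.0296), with 4191, 5000 and 5671 CPM as its lowest, median and highest, against 3795, 4147 and 4734 CPM in Q20. In Q111, 0 of 10 passed (1.24% of all genes), with 2 of the 10 at an unadjusted p under 0.05 and 0 called by DESeq2. Apoa4 in Q140 had the largest fold of these pairs, −0.44 ± 0.14, which did not pass (adjusted p = 0.0535) but did without Q140 M1, Q20 M2 or Q80 M1 (adjusted p = 0.0241, 0.047 and 0.0405). Apoa2 in Q92 had 0.21 ± 0.08 (adjusted p = 0.0573), and DESeq2 called it (0.22 ± 0.07, adjusted p = 0.0264). All these pairs share the Q20 libraries.

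**Figure D1:**
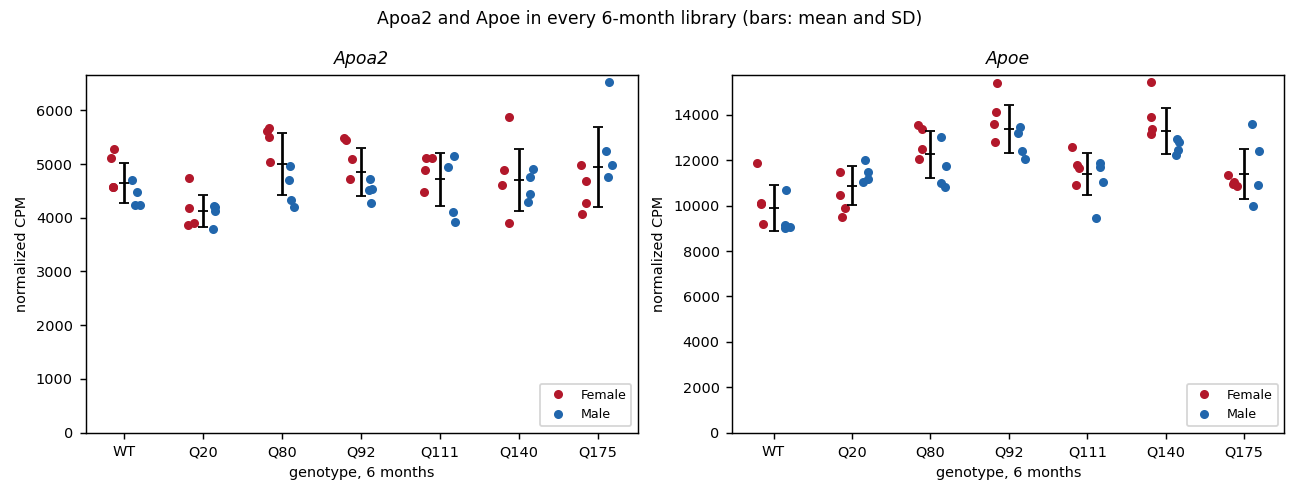
Normalized CPM of Apoa2 (left) and Apoe (right) in every library of 6 months, by genotype, with females in red left of males in blue and bars for the mean and SD of the group. All Q92 and Q140 libraries had more Apoe than the highest Q20 library (12024 CPM), and Apoa2 had its lowest mean in Q20. The share of all genes that separate as Apoe does is not given here.

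Leaving out libraries ended several of the 6-month calls against Q20. Without Q20 F1, F3 and F4 none of them passed: Apoa2 had 0.21 ± 0.09 in Q175 (adjusted p = 0.282) and 0.22 ± 0.09 in Q80 (adjusted p = 0.299), and Apoe 0.19 ± 0.08 in Q92 (adjusted p = 0.176) and 0.18 ± 0.08 in Q140 (adjusted p = 0.333). Left out singly, each of these 3 libraries also ended the calls of Apoa2 in Q175 and Q80 and of Apoe in Q140, although the folds stayed close to those with all libraries. They were 0.236 to 0.25 and 0.246 to 0.26 for Apoa2 in Q175 and Q80, and 0.245 to 0.263 for Apoe in Q140, with adjusted p between 0.0514 and 0.0721. No single library of Q20, Q80, Q92 or Q140 left out ended the call of Apoe in Q92. The call of Apoa2 in Q175 ended as well without Q175 M3 (0.18 ± 0.07, adjusted p = 0.116) or M4 (0.24 ± 0.08, adjusted p = 0.0616), in females alone (0.11 ± 0.11), in a fit of the 2 groups alone (adjusted p = 0.095) and with limma on the deposited FPKM (0.21 ± 0.08, adjusted p = 0.0948). That in Q80 ended without Q80 F2, F3 or F4 (folds of 0.245 to 0.254), and that of Apoe in Q140 without Q140 F1 (0.25 ± 0.08). With limma on FPKM Apoe had 0.14 ± 0.08 in Q92 (adjusted p = 0.217) and 0.22 ± 0.08 in Q140 (adjusted p = 0.0912), and Apoa2 0.21 ± 0.08 in Q80 (adjusted p = 0.106), none of which passed. The summed CPM of 14 Kupffer cell and macrophage markers, all detected, was 136 to 686.5 in Q175, 327.1 to 549.3 in Q140, 282.5 to 657.9 in Q92 and 316.9 to 654.2 in Q80, against 393 to 1493 in Q20. Of these markers 12, 13, 12 and 4 fell in Q175, Q140, Q92 and Q80. Of 8 markers of sinusoidal endothelial cells 4, 0, 6 and 1 fell, and their summed CPM was 127.5 to 430.2, 145.8 to 402.9, 132.6 to 415.7 and 119.7 to 389.6 in these lines, against 220.4 to 573.8 in Q20. Their part in the results was not tested. In bulk tissue, fewer cells of a type and less RNA per cell cannot be told apart.

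At 2 months, none of the 10 genes passed in Q80 (0.0991% of all genes), Q92 (0.0%), Q111 (0.0%) or Q140 (0.0%) against Q20. At 10 months, none did in Q80 (0.0127% of all genes), Q92 (4.0%), Q111 (1.11%) or Q140 (0.00637%). Of the 40 tests at each age edgeR gave 0 and 1 at an unadjusted p under 0.05, and DESeq2 called 0. The 1 was Apoa1 in Q111 at 10 months, −0.29 ± 0.13 (adjusted p = 0.329).

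The Q20 allele was set against WT to see whether a knock-in allele with a short repeat differed from the natural gene. At 6 months Apob and Apoc3 fell, 2 of 10, where 32.2% of all genes passed. The library names of Q20 and WT differ in format at that age, and its part cannot be told apart from that of genotype. Apob had 3159, 3638 and 4404 CPM as the lowest, median and highest in Q20, against 3741, 4290 and 5228 CPM in WT, a fold of −0.25 ± 0.07 (adjusted p = 0.0034). Apoc3 had 917.6, 997.2 and 1128 CPM in Q20, against 919.8, 1228 and 1497 CPM in WT, a fold of −0.26 ± 0.08 (adjusted p = 0.0115). The groups overlapped for both genes, with the WT libraries of Apoc3 spread more widely. Without Q20 F1, F3 and F4 the fold of Apob was −0.25 ± 0.08 (adjusted p = 0.02), and that of Apoc3 −0.19 ± 0.09 (adjusted p = 0.153). With limma on FPKM Apoc3 did not pass (−0.15 ± 0.08, adjusted p = 0.131). On this scale the median of all genes was 0.105 higher in Q20. Apoe had 0.16 ± 0.08 in Q20 against WT (adjusted p = 0.11), but passed without the 3 Q20 females (0.24 ± 0.08, adjusted p = 0.0285) and with limma on FPKM (0.36 ± 0.08, adjusted p = 0.000271). At 2 months 0 of 10 passed (0.0% of all genes) and at 10 months 0 of 10 (0.0127%), with 1 and 0 at an unadjusted p under 0.05 and 0 called by DESeq2.

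Of the 76 tested genes of the other pathway lists 27 passed in Q20 against WT at 6 months (35.5%, against 32.2% of all genes). The difference in name format applies to these genes too. Of 11 other apolipoproteins tested 5 fell, Apoc1 most clearly (−0.57 ± 0.08), with Apoh (−0.25 ± 0.05) and Apool, a mitochondrial protein of the family (−0.43 ± 0.06). Of 16 genes of assembly and secretion 4 fell, among them Sar1b, a GTPase of the coat that carries VLDL out of the endoplasmic reticulum (−0.30 ± 0.08). Of 12 plasma enzymes 4 fell, among them Pon1, an HDL-bound enzyme (−0.43 ± 0.08). Of 14 receptors and transporters 5 rose, with Lrp1, a remnant receptor, at 0.63 ± 0.11. Of the transcription factors 8 of 23 rose and 1 fell, with the oxysterol receptor gene Nr1h2 at 0.43 ± 0.06 and Nr1h4 at −0.37 ± 0.09. The summed Kupffer markers were 393 to 1493 CPM in Q20, against 249.2 to 850.5 CPM in WT, and 12 of 14 rose. The summed sinusoidal endothelial markers were 220.4 to 573.8 CPM in Q20, highest in F4, F1 and F3, against 126.9 to 278.5 CPM in WT, and 7 of 8 rose. Their part was not tested. Without Q20 F1, F3 and F4 Sar1b had −0.21 ± 0.09 and did not pass (adjusted p = 0.112), and the other genes named so far in this paragraph passed. Sec23a (−0.17 ± 0.06, adjusted p = 0.0563) and Scarb1 (0.17 ± 0.08, adjusted p = 0.126), which passed with all libraries, did not pass either.

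**Figure D2:**
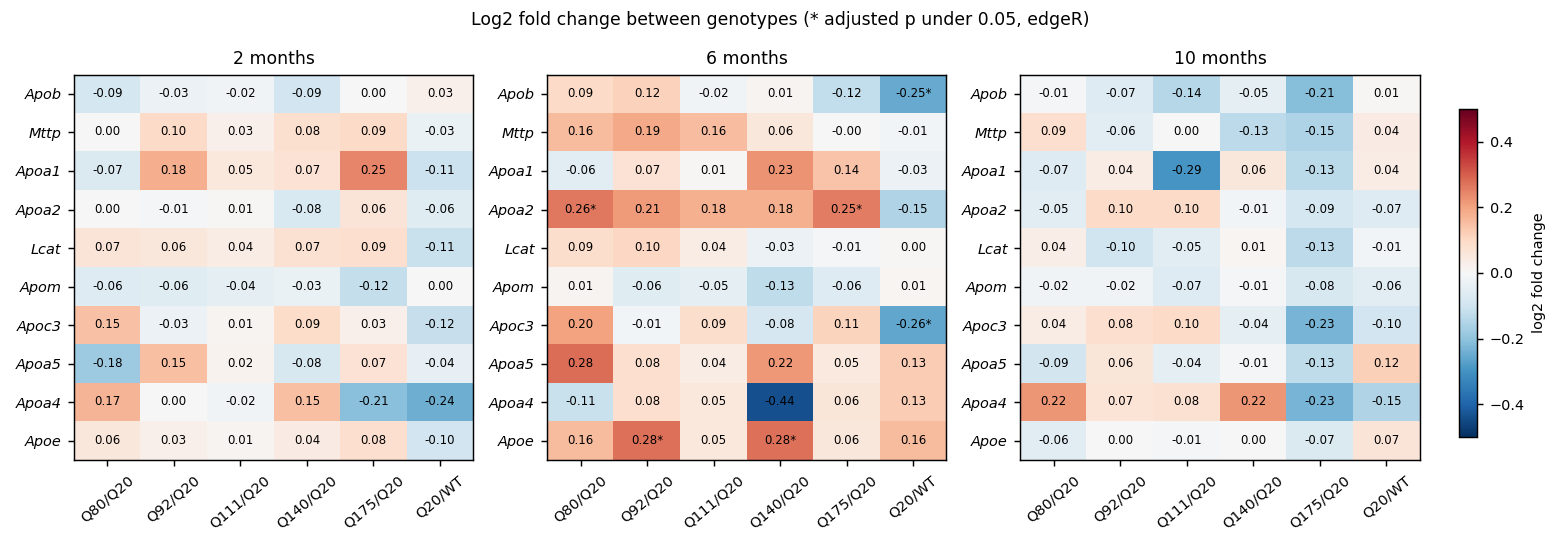
Log2 fold change of the 10 genes at 2, 6 and 10 months, with each longer allele over Q20 and Q20 over WT in columns, and stars for an adjusted p under 0.05 (edgeR). The 6 stars all stand at 6 months, for Apoa2, Apoe, Apob and Apoc3. At that age the library names of Q20 and WT differ in format, which cannot be told apart from genotype.

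Between females and males 8 of 10 genes passed at 2 months (57.6% of all genes), 8 at 6 months (60.9%) and 7 at 10 months (57.2%), shares above but not far from those of all genes. The 10 genes moved in both directions: Apob, Mttp and Apoa1 fell in females at each age, and Lcat, Apoa5 and Apoc3 rose at each age. Apoa4 and Apom rose at 2 and 6 months, Apoa2 rose at 10 months alone, and Apoe passed at none in edgeR.

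Apob and its lipid loader Mttp were lower in females. Apob at 10 months had 3093 CPM at the lowest, 4187 at the median and 4832 at the highest in 28 females, against 3689, 5170 and 6293 CPM in 27 males, and all 28 females stood below the male median. Its log2 fold at 2, 6 and 10 months was −0.15 ± 0.03, −0.28 ± 0.04 and −0.29 ± 0.04 (adjusted p = 0.000156, 2.71e-09 and 1.03e-07), and the female mean was the lower in all 7 genotypes at each age. Mttp had folds of −0.10 ± 0.04, −0.19 ± 0.04 and −0.23 ± 0.04 (adjusted p = 0.0198, 5.26e-05 and 5.09e-06). At 6 months its 28 females had 199.5, 260.6 and 308.6 CPM as lowest, median and highest, against 217.1, 309.9 and 339.4 CPM in 28 males, and again all females lay below the male median. With limma on FPKM Mttp did not pass at any age (−0.01, −0.06 and −0.08) and Apob not at 2 months (−0.05, adjusted p = 0.0624). On that scale the median of all genes was 0.09, 0.12 and 0.15 higher in females at 2, 6 and 10 months, so that the folds of both genes lay below it at each age.

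Lcat, which acts on HDL in plasma, had the least overlap between the sexes. At 10 months its lowest, median and highest values were 300.8, 359.2 and 415.5 CPM in females, against 212.6, 277.9 and 316.7 CPM in males, and 27 of 28 females stood above the highest male. The log2 folds at 2, 6 and 10 months were 0.44 ± 0.03, 0.35 ± 0.03 and 0.41 ± 0.03 (adjusted p = 1.55e-16, 2.21e-13 and 4.4e-16). Lcat in the library labelled Q80 male M5 stood at 350.07 CPM, the highest of the 29 libraries labelled male at 2 months, where the highest of the other 28 was 298.8 CPM. Without it the same 8 genes passed at 2 months. Apom, which rides on HDL, rose by 0.18 ± 0.03 at 2 months and 0.14 ± 0.04 at 6 months, and had 0.08 ± 0.04 at 10 months (adjusted p = 0.112). Apoa2 had 0.08 ± 0.04, 0.08 ± 0.04 and 0.12 ± 0.04, the last of which passed (adjusted p = 0.0153). Apoe had 9190 CPM at the median in females and 8973 CPM in males at 10 months, with folds of 0.09 ± 0.04, 0.06 ± 0.04 and 0.06 ± 0.04 (adjusted p = 0.0887, 0.193 and 0.22). With limma on FPKM, where the median of all genes was itself higher in females, Apoe passed at each age (0.18 ± 0.04, 0.18 ± 0.04 and 0.19 ± 0.04), Apoa2 also at 2 and 6 months, and Apom and Apoa4 also at 10 months (0.23 ± 0.04 and 0.37 ± 0.11).

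**Figure D3:**
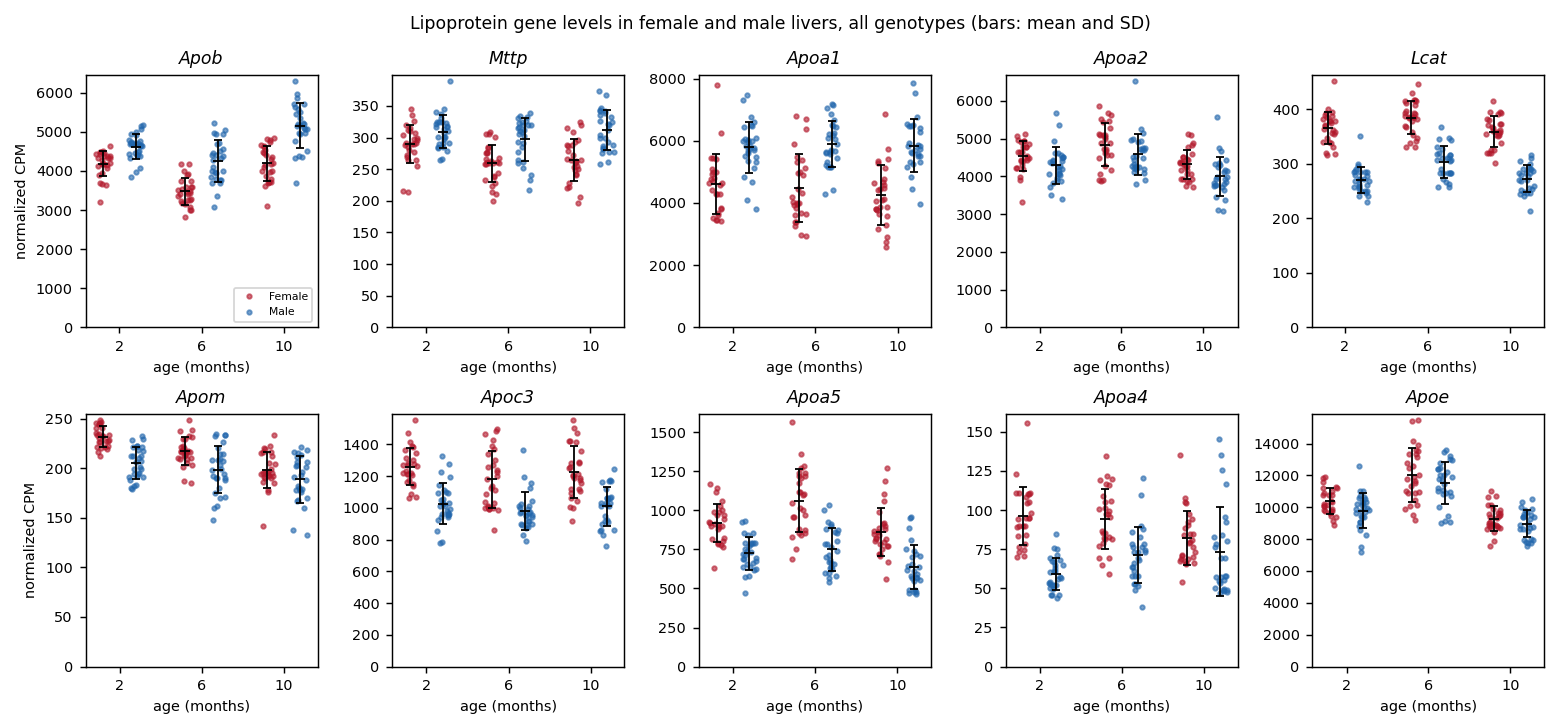
Normalized CPM of the 10 genes in each library by age, with females in red left of males in blue, all genotypes together, and bars for the mean and SD. Females lie lower for Apob, Mttp and Apoa1 and higher for Lcat, Apoc3 and Apoa5, while Apoe overlaps throughout.

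Apoa1, Apoc3, Apoa4 and Apoa5 lie side by side on chromosome 9 (46228580 to 46271919 on GRCm38, 43340 bases), Apoc3 on the minus strand and the others on the plus strand, and their sex differences ran in opposite directions. Apoa1 fell in females, with 2592, 4113 and 6849 CPM as the lowest, median and highest at 10 months, against 3966, 5723 and 7864 CPM in males. Of the 28 females 12 stood below the lowest male. The folds of Apoa1 were −0.34 ± 0.07, −0.40 ± 0.07 and −0.46 ± 0.07 at 2, 6 and 10 months (adjusted p = 1.16e-05, 8.43e-06 and 3.62e-07). Its neighbour Apoc3 rose by 0.31 ± 0.04, 0.27 ± 0.04 and 0.29 ± 0.04 (adjusted p = 1.47e-08, 7.21e-07 and 1.54e-07). Apoa5 rose by 0.33 ± 0.05, 0.51 ± 0.07 and 0.44 ± 0.08 (adjusted p = 1.56e-07, 4.15e-09 and 2.86e-06). At 6 months Apoa5 had 691.1, 1070 and 1563 CPM in females, against 538.9, 728.6 and 1037 CPM in males, and 15 of 28 females stood above the highest male. The female mean of Apoa1 was the lower, and that of Apoa5 the higher, in all 7 genotypes at each age.

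Apoa4, between Apoc3 and Apoa5, rose by 0.70 ± 0.06 at 2 months, with 70.2, 94.9 and 155.6 CPM as the lowest, median and highest of 27 females, against 44.1, 57.4 and 84.9 CPM in 29 males. All females exceeded the male median, and 19 exceeded the highest male, the library M5 of Q80 that appeared to go against its label. Without M5 the highest male had 76.0 CPM, 23 of 27 females exceeded it, and Apoa4 rose by 0.71 ± 0.06. At 6 months it rose by 0.41 ± 0.08, and at 10 months it had 0.17 ± 0.11 (adjusted p = 0.168). The change of this sex difference from 2 to 10 months was −0.54 ± 0.13 (adjusted p = 0.00501), the 1 interaction of 10 that passed, where 2.49% of all genes did. Without M5 it was −0.55 ± 0.13 (adjusted p = 0.00441). From 2 to 6 months 0 of 10 passed (0.998% of all genes), with 3 at an unadjusted p under 0.05 and 0 called by DESeq2. At 10 months the females had 53.9, 79.3 and 134.9 CPM as the lowest, median and highest, against 47.3, 57.9 and 145.1 CPM in the males. The 4 highest males were M3 of Q140 (145.06 CPM), M3 of Q80 (135.42 CPM), M2 of WT (125.36 CPM) and M2 of Q92 (116.42 CPM).

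The promoters of 3 of the 4 neighbours are shown because these genes share a locus and differ in direction. Each is 300 bases around the start of the gene in RefSeq (GRCm38.p6), on the plus strand, in capitals where 1 of the motifs searched was found. Apoc3 had no entry in the promoter table.
Apoa1 (chr9:46228380-46228679): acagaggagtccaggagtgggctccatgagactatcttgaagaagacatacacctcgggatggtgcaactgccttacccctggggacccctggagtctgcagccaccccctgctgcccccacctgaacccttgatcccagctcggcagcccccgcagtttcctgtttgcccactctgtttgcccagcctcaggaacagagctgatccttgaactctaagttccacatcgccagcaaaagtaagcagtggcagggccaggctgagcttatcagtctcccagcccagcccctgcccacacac
Apoa4 (chr9:46240594-46240893): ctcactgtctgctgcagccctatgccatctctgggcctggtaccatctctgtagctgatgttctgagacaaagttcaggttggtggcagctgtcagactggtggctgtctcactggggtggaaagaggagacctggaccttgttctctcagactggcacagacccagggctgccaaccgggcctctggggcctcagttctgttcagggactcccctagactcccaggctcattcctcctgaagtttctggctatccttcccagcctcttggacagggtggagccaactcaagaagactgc
Apoa5 (chr9:46268358-46268657): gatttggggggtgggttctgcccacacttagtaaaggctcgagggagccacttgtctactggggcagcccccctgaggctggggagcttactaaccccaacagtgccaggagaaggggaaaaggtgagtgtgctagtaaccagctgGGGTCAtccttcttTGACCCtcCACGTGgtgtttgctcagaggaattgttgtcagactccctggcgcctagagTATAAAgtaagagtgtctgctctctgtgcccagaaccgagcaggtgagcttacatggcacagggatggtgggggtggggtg

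The motifs searched on both strands were the nuclear receptor hexamers AGGTCA and GGGTCA, the HNF4 sequence CAAAGTCCA, the STAT5 sequence TTCNNNGAA, the E-box CACGTG and the TATA box TATAAA. They do not overlap with each other in these promoters. In the Apoa5 promoter GGGTCA was found on either strand, next to an E-box and upstream of a TATA box, and the Apoa1 and Apoa4 windows held none of the 6. Over all 32851 tabulated promoters, 16.3% held AGGTCA, 13.7% GGGTCA, 0.475% CAAAGTCCA, 8.3% TTCNNNGAA, 7.15% CACGTG and 13.6% TATAAA. A match or its absence describes the letters of the window.

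Of the other pathway genes 61.8, 68.4 and 72.7% passed between the sexes at 2, 6 and 10 months, against 57.6, 60.9 and 57.2% of all genes. Of 16 genes of assembly and secretion 5 rose and 7 fell at 2 months, and 3 rose and 8 fell at 6 and at 10 months. Sort1, a sorting receptor that binds Apob, fell, with −0.94 ± 0.09, −1.12 ± 0.08 and −1.18 ± 0.12 at 2, 6 and 10 months, and Tm6sf2, which takes part in lipidation of VLDL, rose by 0.75 ± 0.06, 0.85 ± 0.06 and 0.94 ± 0.04. Of 14 receptors and transporters 8 rose at each age and 2, 3 and 4 fell. Vldlr, the VLDL receptor, had the largest fold of this list among the genes named, 2.42 ± 0.20, 3.43 ± 0.15 and 3.23 ± 0.19, and Abcg5, a sterol exporter, had 0.79 ± 0.07, 0.81 ± 0.07 and 0.74 ± 0.06. Of 12 plasma enzymes 4 rose at each age and 2, 4 and 4 fell, with Pon1 at 0.43 ± 0.05, 0.49 ± 0.04 and 0.45 ± 0.04. Of the other apolipoproteins 3 of 11, 3 of 11 and 6 of 12 rose and 4, 4 and 3 fell, with Saa4 at −0.41 ± 0.07, −0.69 ± 0.11 and −0.60 ± 0.11. Of 23 transcription factors 7, 9 and 8 rose and 5, 6 and 8 fell. The median fold of the 10 lipoprotein genes was 0.13, 0.11 and 0.10, against 0.01, 0.01 and 0.02 over all genes. Beside these results, 13, 14 and 12 of the 14 Kupffer markers rose in females at 2, 6 and 10 months. Their summed CPM at 6 months was 295.6 to 1493 in females, against 136 to 579.8 in males. The summed hepatocyte markers were also higher in females at the median, with 135111, 140190 and 132475 CPM at 2, 6 and 10 months, against 105234, 111518 and 109903 CPM in males, and of these 10 markers 5 rose and 3 fell at each age. Of 8 sinusoidal endothelial markers 7, 5 and 1 rose. The part of these markers was not tested.

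Age was compared within the knock-in lines and within WT. From 2 to 6 months in the knock-in lines 9 of 10 genes passed, all but Apoa1, where 53.1% of all genes did. Apob fell by 0.23 ± 0.03 (adjusted p = 5.35e-11) and Apoe rose by 0.27 ± 0.03 (adjusted p = 9.96e-14). Apoa5 (0.17 ± 0.05), Apoa4 (0.17 ± 0.07), Lcat (0.14 ± 0.03) and Apoa2 (0.11 ± 0.03) rose, while Apoc3 (−0.10 ± 0.04), Mttp (−0.10 ± 0.03) and Apom (−0.07 ± 0.03) fell. With limma on FPKM Apoc3, Mttp and Apom did not pass, and Apom did not without the count filter. These libraries of 6 months are those with the other name format, and its part cannot be told apart from that of age.

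From 2 to 10 months, where the name formats were alike, 2 of 10 passed in the knock-in lines (22.8% of all genes). Apom fell to 192 ± 21.9 CPM at 10 months (SD, n = 47), against 216.9 ± 19.6 CPM at 2 months (n = 48), a fold of −0.17 ± 0.03 (adjusted p = 4.89e-07). Apoe fell to 9177 ± 871.2 CPM, against 10010 ± 988.4 CPM, a fold of −0.12 ± 0.03 (adjusted p = 0.00141). Apob had 0.07 ± 0.03 (adjusted p = 0.0624) and passed with limma on FPKM (0.09 ± 0.02, adjusted p = 0.000123). In WT Apom had 203.6 ± 14 CPM at 10 months, against 224.7 ± 14.3 CPM at 2 months (n = 8 each), and Apoe 8889 ± 557.6 CPM, against 10437 ± 1070 CPM, folds of −0.13 ± 0.05 and −0.22 ± 0.08 that did not pass (adjusted p = 0.186 and 0.178). In WT 0 of 10 passed from 2 to 10 months (1.62% of all genes) and 0 of 10 from 2 to 6 months (1.54%). At an unadjusted p under 0.05 edgeR gave 2 and 1, and DESeq2 called Apoe from 2 to 10 months and none from 2 to 6 months.

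The change from 2 to 6 months differed between the knock-in lines and WT for Apob and Apoe, 2 of 10, where 23.1% of all genes passed. Apob had 2828, 3692 and 4951 CPM as the lowest, median and highest in 48 knock-in libraries of 6 months, against 3741, 4290 and 5228 CPM in 8 WT libraries, and 3217, 4433 and 5186 CPM in the knock-in libraries of 2 months, against 3636, 4512 and 4957 CPM in WT. The difference of the changes was −0.24 ± 0.08 (adjusted p = 0.0166). Apoe had 9460, 12036 and 15455 CPM in the knock-in libraries of 6 months, against 9012, 9645 and 11900 CPM in WT, and 7193, 10031 and 12601 CPM in the knock-in libraries of 2 months, against 8547, 10515 and 11889 CPM in WT. The difference of its changes was 0.34 ± 0.08 (adjusted p = 0.000472). At 10 months Apob and Apoe had medians of 4539 and 9316 CPM in the knock-in libraries, against 4889 and 8865 CPM in WT. From 2 to 10 months 0 of 10 differed (0.0123% of all genes), with 0 at an unadjusted p under 0.05 and 0 called by DESeq2.

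**Figure D4:**
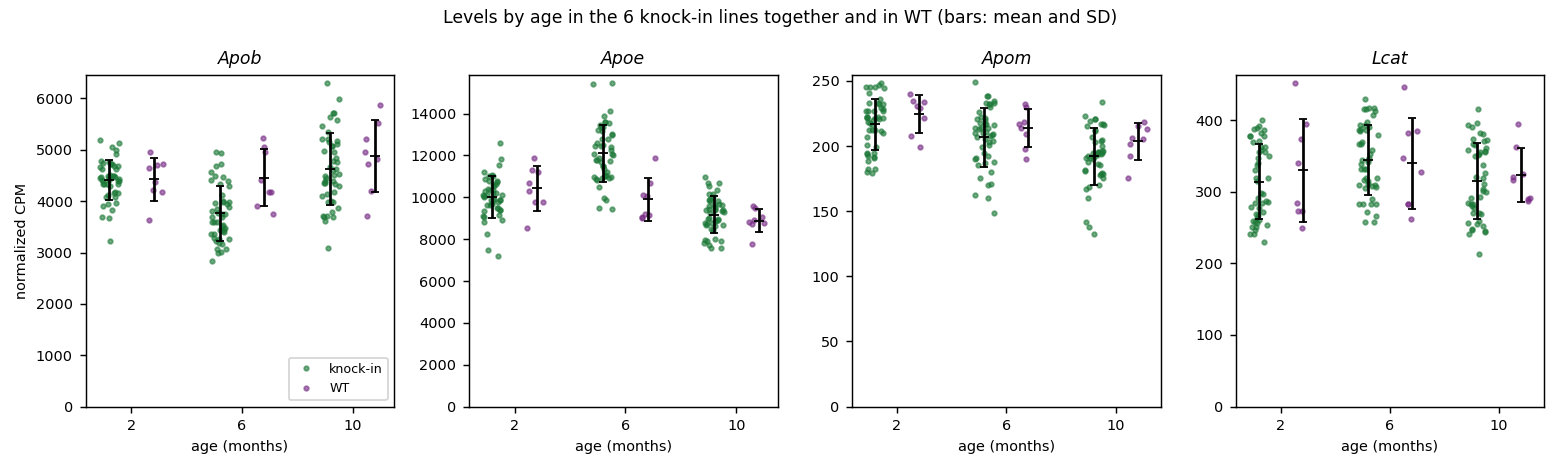
Normalized CPM of Apob, Apoe, Apom and Lcat at 2, 6 and 10 months, with knock-in libraries of all 6 lines in green left of WT libraries in purple, and bars for the mean and SD. At 6 months the knock-in libraries lie lower for Apob (median 3692 CPM, against 4290 in WT) and higher for Apoe (12036 CPM, against 9645 in WT), with overlap between the groups at every age.

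Of the other pathway genes 40 of 77 passed from 2 to 6 months in the knock-in lines (51.9%, against 53.1% of all genes) and 21 of 77 from 2 to 10 months (27.3%, against 22.8%). From 2 to 6 months 7 of 16 genes of assembly and secretion fell and 1 rose, with Sec23a, a coat protein, at −0.17 ± 0.02, and 7 of 12 plasma enzymes fell and 2 rose, with Pon3 at −0.23 ± 0.02. Of 12 other apolipoproteins 4 fell and 2 rose, with Apoc1 at −0.34 ± 0.03. Of 14 receptors and transporters 5 rose and 2 fell, and of 23 transcription factors 8 rose and 2 fell, with Nr1h2 at 0.40 ± 0.03 and Srebf2, the regulator of cholesterol synthesis, at 0.40 ± 0.05. From 2 to 10 months 4 of 16 genes of assembly and secretion, 3 of 12 plasma enzymes, 4 of 12 other apolipoproteins, 1 of 14 receptors and transporters and 7 of 23 transcription factors fell, and 2 plasma enzymes rose. Among those that fell were Apof (−0.21 ± 0.04) and the endothelial lipase Lipg (−0.57 ± 0.13), and Pltp, the phospholipid transfer protein, rose by 0.45 ± 0.12. Over the same ages 6 of 6 adipocyte markers rose, with a summed CPM of 0.437 to 61.2 (median 1.1) at 10 months, against a median of 0.789 at 2 months, where no library reached 2 CPM, and their part was not tested. Of 14 Kupffer markers 3 rose, and of 7 neutrophil markers tested 7 rose. In WT Mlxipl, a carbohydrate-sensing factor, fell from 2 to 6 months (−0.40 ± 0.08) and from 2 to 10 months (−0.43 ± 0.08).

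Apoa2, Apoc3, Apoe and Apoa5 varied together between libraries of 1 genotype, age and sex, and so did Apob and Mttp. The mean of each of the 42 groups of genotype, age and sex was taken off the log2 CPM for this, and 45 pairs of the 10 genes were correlated over all libraries. Permutation tests within the groups (100000 permutations, two-sided, smallest p 1e-05) gave 14 pairs with an adjusted p under 0.05, 12 positive and 2 negative. Apoa2 and Apoc3 had r = 0.61 (rho 0.58), Apob and Mttp r = 0.61 (rho 0.54), Apoa5 and Apoe r = 0.56 (rho 0.56), Apoa2 and Apoe r = 0.53 (rho 0.51) and Apoc3 and Apoe r = 0.52 (rho 0.52), each with an adjusted permutation p of 5e-05, the smallest these permutations can give. Without the 2 libraries farthest from the median these r values were 0.61, 0.57, 0.55, 0.51 and 0.51. At 2, 6 and 10 months Apob and Mttp had r = 0.76, 0.60 and 0.53, and Apoa2 and Apoc3 r = 0.77, 0.49 and 0.57. Pairs of other genes were not tested, so the 14 pairs have no share over all genes beside them. Each of the 10 had its highest r, over the same residuals, with a gene outside the 10.

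Apob was negatively correlated with Apoe (r = −0.26, rho −0.28, adjusted permutation p = 0.0229) and Apoc3 (r = −0.24, rho −0.25, adjusted permutation p = 0.0259). By age, r with Apoe and Apoc3 was −0.47 and −0.49 at 2 months, −0.37 and −0.40 at 6 months, and −0.01 and 0.01 at 10 months. Without the 2 farthest libraries they were −0.30 and −0.28. Apob was also correlated with Apom (r = 0.33, rho 0.28, adjusted permutation p = 0.00405), with −0.04, 0.45 and 0.41 at 2, 6 and 10 months, and Apoa1 with Apoe (r = 0.40, rho 0.41, adjusted permutation p = 5e-05). Apoa1 and Apoa4, neighbours on chromosome 9, had r = 0.12 (rho 0.15, adjusted permutation p = 0.217), and Apoa4 and Apoc3 r = 0.40 (rho 0.40, adjusted permutation p = 9e-05).

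**Figure D5:**
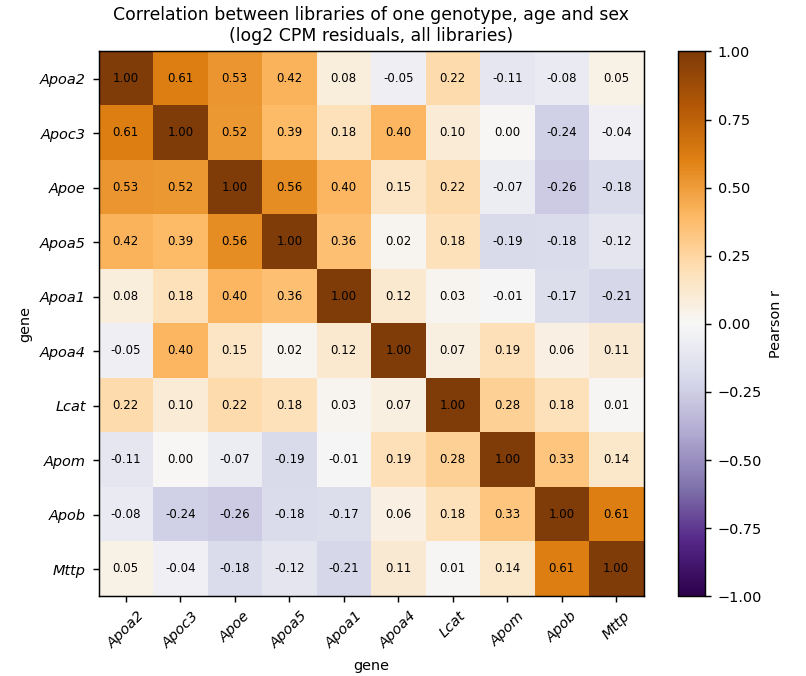
Pearson r between the 10 genes over all libraries, after the mean of each genotype, age and sex was taken off the log2 CPM. Apoa2, Apoc3, Apoe and Apoa5 form a block with r of 0.39 to 0.61, and Apob and Mttp have r = 0.61.

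Apob and Mttp have the longest exonic lengths of the 10 genes, 13934 and 6206 bases, and Apoa2, with 537 bases, the shortest. For each library the mean log2 CPM of 620 genes with under 1500 exonic bases was subtracted from that of 4727 genes with at least 5000. Within the groups this difference was correlated with Apob (r = 0.32) and Mttp (0.26), and negatively with the other 8, from −0.61 (Apoc3), −0.45 (Apoe) and −0.40 (Apoa2) to −0.16 (Apom). With it removed, Apob and Mttp kept r = 0.58, Apoa2 and Apoc3 0.51, Apoa5 and Apoe 0.52, Apoa2 and Apoe 0.43 and Apoc3 and Apoe 0.35, whereas Apob had −0.13 with Apoe and −0.06 with Apoc3. At 6 months the median of this difference was 0.08 in Q20 and 0.01 in all knock-in libraries, against −0.15 in WT. Females had medians of 0.05, 0.06 and 0.04 at 2, 6 and 10 months, against −0.03 in males at each age. Its part in the sex and genotype results was not tested.

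The 3 genes most like each member over the same residuals, of 10920 searched, are a description of these libraries. For Apob they were Psme4 (r = 0.79), Usp9x (0.78) and Usp47 (0.75), and for Mttp Sos1 (0.76), Lrpprc (0.74) and Ddb1 (0.74). For Apoe they were Atp5d (0.85), Uqcrq (0.84) and Chchd10 (0.81), and for Apoc3 Sdhc (0.78), Marc2 (0.76) and Ndufb8 (0.75). Apoa2 was most like Apoc1 (0.76), Sod1 (0.76) and Cyp2d26 (0.72). For the others the highest r was 0.62 for Apoa1 (Proc), 0.60 for Apoa5 (Ndufa6), 0.60 for Lcat (Agt), 0.55 for Apom (Enho) and 0.46 for Apoa4 (Cyp2d40).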

How the data were processed

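Polyadenylated RNA of flash-frozen mouse liver was sequenced, and base calling used CASAVA 1.8.2, per the submitters' processing notes. Information on the aligner, the quantifier, the genome build, the annotation and strand was not given in the sources used here. Expected counts and FPKM per gene, 1 column per library, are what the authors deposited. Of the deposited expected counts 14.149% were not whole, and values were rounded. Symbols came from GENCODE M21 (GRCm38), which held 37693 of 39179 gene IDs. In it 4 of the 10 genes (Apoa4, Apoa5, Lcat and Mttp) overlap a gene on the other strand. Whether reads of the overlapping genes were told apart is not known, because the strand setting was not given.

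The members and lists were chosen with earlier results of these data known. The test was edgeR 4.0.16 under R 4.3.3, with TMM factors, filterByExpr, glmQLFit and glmQLFTest, at each age, with all 7 genotypes and sex in 1 fit. Slopes per 100 repeats were fitted in the 6 knock-in lines, with the length from the line's name. Adjustment ran over all genes tested. The SE is the log2 fold change divided by the square root of F, and 95% intervals are 1.96 SE to either side. Both cover counting error and the spread between libraries, which may be technical where the labels name no separate animals.

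Marker sums are CPM of the total count. Alternatives were DESeq2 1.42.0, RLE normalization, no count filter, limma 3.58.1 on log2(FPKM + 0.1), a replicate block, fits of 2 groups or 1 sex, and libraries left out. The interactions of age with sex and with knock-in status, and leaving out Q80, Q92 and Q140 libraries, were added after the data were seen. The text names the 10 genes, in other lists up to 3 genes per comparison with the smallest p past the threshold, and the 3 most correlated genes of each of the 10. Some genes that this rule selects are not reported here. The models were tested on simulated counts. No 2 libraries had identical values.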

Additional observations from a re-analysis of the deposited data

Results flagged for a closer look

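In 6 of 210 groups of 1 gene, genotype and age (2.86%, where chance flags about 1 in 20), 1 library lay far from the rest. Apoe was low in the 2-month Q140 male M2 (7193 CPM, the others 9999 to 11567) and in the 2-month Q92 male M4 (7487 CPM, the others 9613 to 10880). It was also low in the 10-month WT male M3 (7767 CPM, the others 8726 to 9568). Apom was low in the 6-month Q111 male M2 (159.8 CPM, the others 205.2 to 232.4). Apob was high in the 2-month Q175 male M3 (4991 CPM, the others 4391 to 4625). Apoa2 was high in the 6-month Q20 female F2 (4734 CPM, the others 3795 to 4225), the 1 Q20 female of that age outside the 3 with high Kupffer markers.

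Effects that differed between groups were the sex difference of Apoa4, which changed by −0.54 ± 0.13 from 2 to 10 months, and the change from 2 to 6 months in the knock-in lines less that in WT, −0.24 ± 0.08 for Apob and 0.34 ± 0.08 for Apoe (log2, SE, edgeR). The last 2 coincide with the other format of library names at 6 months, and its part cannot be told apart.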

How the results depend on the processing

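Of 3980 alternative values of single genes, 3897 stayed on the same side of the threshold, 35 no longer passed and 48 passed newly. Whether values that did not pass kept their sign is not given here. Counts of the 10 genes that passed changed by over 1.5 times as follows. Without the Q20 libraries 1 gene (Apoc3) passed along the slope at 10 months, where 0 did with them. DESeq2 called 1 gene (Apoe) from 2 to 10 months in WT, where edgeR called 0. With limma on FPKM 4 genes (Apoa5, Apob, Apoe and Lcat) passed for the knock-in lines less WT from 2 to 6 months, where edgeR called 2. For Q175 against Q20 at 6 months the count of 1 became 0 in females alone, with limma on FPKM, in a fit of the 2 groups and with Q20 F1, F3 and F4 left out together, and with 1 library left out it ran from 0 to 1 (0 without Q175 M3 or M4, or Q20 F1, F3 or F4). For the other lines against Q20 at 6 months the 3 calls became 0 with limma on FPKM and 0 without the 3 Q20 females, and with 1 library left out ran from 1 to 6 (1 without Q20 F1, F3 or F4, 5 without Q140 M1, Q20 M3, Q20 M4 or Q92 M1, and 6 without Q80 M1). The cause was not tested. The share of all genes that passed under each alternative is not given here, so these counts cannot be set against it.

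Replicate numbers were not treated as pairs in the main fits. Same-numbered libraries of different genotypes correlated at a mean r of −0.012, 0.087 and 0.005 at 2, 6 and 10 months. Other-numbered libraries of the same sex had 0.004, −0.029 and −0.001, so that same-numbered libraries were slightly more alike at 6 months. The same-numbered pairs of Q175 and Q20 ran from −0.26 to 0.44 over the 3 ages. With a replicate block the counts were as without it (0 along the slope, 8, 8 and 7 for sex, 1 for Q175 against Q20 at 6 months), except 4 in place of 3 for the other lines at 6 months. The lowest count of these genes in any library was 1394 (Apoa4), and calls at another depth were not tested.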
